A study of Mus musculus with 12 samples.

Results

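The genes described here were 8 genes of mucosal defence in mouse colon adenoma cells: the serum amyloid A genes Saa1, Saa2 and Saa3, the lectin genes Reg3b and Reg3g, Dmbt1, Pigr and Lcn2. They were listed by gene symbol and found on the array through 11 probe sets that carry that symbol alone, out of 17097 gene symbols and 45141 probe sets. Saa2, Reg3b and Pigr had 2 probe sets each, and for them the brighter over all arrays was used in the gene test. All 8 genes passed the filter on dim genes, a log2 signal above 4.40 on at least 3 of the 12 arrays.

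Adenoma cells were separated on their Mex3a and Lgr5 status, which gave the double positive population (Mex3a+ Lgr5+), the population positive for Mex3a alone (Mex3a+ Lgr5-), the population positive for Lgr5 alone (Mex3a- Lgr5+) and the double negative population (Mex3a- Lgr5-). Each population was taken from the same 3 mice, MKL347, MKL358 and MKL367, which gave 1 array per population, so 12 arrays in 4 groups of 3. All 3 mice, and so all 4 populations, are labelled ki/+, which is not explained, and the labels give no age, strain or treatment. The labels do not say how Mex3a or Lgr5 status was read in the sort. Each array came from pooled adenomas of 1 mouse, with 500 sorted cells for MKL358 and 2000 for MKL347 and MKL367, so a mouse and its pool size cannot be told apart. The protein encoded by Mex3a binds RNA, and Lgr5 is a receptor of the Wnt pathway used as a marker of crypt base stem cells.

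The labels were checked on the arrays. Mex3a was higher in Mex3a+ than in Mex3a- populations by 0.69 on the log2 scale (limma adjusted p = 0.00162), and Lgr5 was higher in Lgr5+ than in Lgr5- populations by 1.55 (limma adjusted p = 0.000872). Lgr5 also differed by Mex3a status, by 0.82 (limma adjusted p = 0.00139), so the Mex3a sides were not matched for it. Without mouse MKL347 the Mex3a difference was 0.60 (limma adjusted p = 0.0615) and that of Lgr5 by Mex3a status 0.72 (limma adjusted p = 0.0664), which did not pass. Within Lgr5+ cells Mex3a differed by 0.58 by Mex3a status (limma adjusted p = 0.0579, and 0.00850 with the mouse as a block), and within Mex3a+ cells Lgr5 differed by 1.09 by Lgr5 status (limma adjusted p = 0.584, and 0.0289 with the block), neither called without the block. The epithelial genes Epcam (11.44 to 11.77), Krt8 (11.11 to 11.56) and Cdh1 (8.86 to 9.67) were bright on all 12 arrays. Array medians were 4.86 to 4.92 on the log2 scale. The arrays give no read depth, and their number limits the precision.

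Serum amyloid A proteins are small lipid-binding acute phase proteins. Saa1 and Saa2 are made mainly by the liver in inflammation, and in the gut epithelium they are induced by microbes and by the cytokine interleukin 22. Reg3b and Reg3g are secreted C-type lectins that act on bacteria close to the epithelium, and interleukin 22 acting through the transcription factor Stat3 induces them. Dmbt1 is a large secreted scavenger receptor glycoprotein of mucosal surfaces, Pigr is the receptor that carries polymeric immunoglobulin A across the epithelium into the lumen, and Lcn2 is a lipocalin that binds bacterial siderophores and so withholds iron. Genes of this group are induced in epithelium through the factors NF-kB, C/EBP and Stat3, in different combinations for different genes.

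The sequences next to the annotated starts are shown because Saa1 and Saa2, and Reg3b and Reg3g, moved together in pairs across the arrays. RefSeq windows of 250 bases upstream of the start (build GRCm38.p6) were held for 7 of the 8 genes. For Saa3 the whole window, and for Saa1 most of it, lies inside the span that RefSeq gives for the gene, so these 2 windows do not lie upstream of the outermost start. Saa3, Saa1 and Saa2 lie in 1 cluster on chromosome 7, and Reg3b and Reg3g in 1 cluster on chromosome 6. The Saa2 window is chr7:46751583-46751832 (+ strand), the Reg3b window chr6:78370635-78370884 (+ strand), the Reg3g window chr6:78468875-78469124 (- strand) and the Lcn2 window chr2:32387740-32387989 (- strand). Each is written 5′ to 3′ in the direction of its gene, and capitals mark every match to the 4 motifs searched.
Saa2: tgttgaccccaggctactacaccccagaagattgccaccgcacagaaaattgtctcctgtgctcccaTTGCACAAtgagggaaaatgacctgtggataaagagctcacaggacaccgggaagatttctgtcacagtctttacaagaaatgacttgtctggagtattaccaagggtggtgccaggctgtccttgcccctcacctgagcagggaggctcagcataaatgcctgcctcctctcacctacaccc
Reg3b: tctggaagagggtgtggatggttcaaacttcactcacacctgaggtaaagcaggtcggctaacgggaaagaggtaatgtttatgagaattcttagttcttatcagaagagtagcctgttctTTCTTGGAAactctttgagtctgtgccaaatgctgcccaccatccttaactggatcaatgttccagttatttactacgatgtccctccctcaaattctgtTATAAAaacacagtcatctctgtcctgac
Reg3g: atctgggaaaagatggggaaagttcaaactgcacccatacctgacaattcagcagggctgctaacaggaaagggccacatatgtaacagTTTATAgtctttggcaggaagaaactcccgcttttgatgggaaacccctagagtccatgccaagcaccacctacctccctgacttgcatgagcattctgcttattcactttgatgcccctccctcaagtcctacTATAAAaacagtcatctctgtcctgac
Lcn2: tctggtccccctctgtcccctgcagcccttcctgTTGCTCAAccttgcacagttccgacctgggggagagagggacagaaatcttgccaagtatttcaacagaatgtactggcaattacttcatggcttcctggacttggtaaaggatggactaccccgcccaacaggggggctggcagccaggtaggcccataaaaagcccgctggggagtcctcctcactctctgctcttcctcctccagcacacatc

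The motifs, searched on both strands, were GGG, any 3 bases and TTCC for NF-kB, TTGCNNAA for C/EBP, TTCNNNGAA for STAT factors and TATAAA for the TATA box. A match is a description of letters and no evidence of binding. The C/EBP letters were found in 4 of the 7 windows (Saa1, Saa2, Saa3 and Lcn2), against 9.56% of 32851 RefSeq windows of the same length. The STAT letters were found in Reg3b alone of the 7, at bases 129 to 121 before the start, against 7.02% of all windows. TATAAA was found in Reg3b at bases 29 to 24 and in Reg3g at bases 27 to 22 and 161 to 156 before the start, against 12.4% of all windows. The NF-kB letters were in none of the 7 windows, against 4.65% of all windows.

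The C/EBP matches of the 3 serum amyloid genes are shown with 10 bases on either side, the match in capitals, at chr7:46743145-46743172 (- strand) for Saa1, chr7:46751640-46751667 (+ strand) for Saa2 and chr7:46715758-46715785 (- strand) for Saa3. Those of Saa1 and Saa3 lie inside the gene span.
Saa1: tgtgctcccaTTGCACAAtgagggagaa
Saa2: tgtgctcccaTTGCACAAtgagggaaaa
Saa3: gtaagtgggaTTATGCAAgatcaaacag
The Saa1 and Saa2 windows were identical at 238 of 251 aligned positions (94.8%), whereas Saa1 and Saa3 shared 48.9% and Reg3b and Reg3g shared 68.4%. Array probes match transcripts and not these windows, so the identities do not measure shared probe signal, and probe sequences were not compared. The Saa2 probe set used in the gene test carries the suffix of sets that can match more than 1 transcript. Part of its signal may therefore belong to Saa1, and the values of these 2 genes are uncertain as separate measurements.

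The main comparison asked how these genes differed between cells sorted as Mex3a+ and cells sorted as Mex3a- in the same adenomas. In the Mex3a+ populations 7 of the 8 genes fell, among them Saa1 (16.3-fold lower in linear signal), Saa2 (14.3-fold), Reg3b (12.3-fold) and Dmbt1 (10.3-fold). The folds for Saa1 and Saa2 are estimates, not bounds, from a fit, added after the data were seen, with signals below the filter level of 4.40 raised to it. Pigr and Reg3g fell by smaller amounts, Saa3 by very little, and Lcn2 rose 3.10-fold. The sign was the same in 3 of 3 mice for every one of the 8 genes. Without mouse MKL347, 5 of the 8 remained past the threshold, with Saa2, Saa3 and Reg3g lost. Over all genes that fit called 1034, against 3422 with all 3 mice. The averages over both Lgr5 states were compared by limma over all 12595 genes tested, 6 arrays against 6, and a gene is called where its p, adjusted by Benjamini-Hochberg, is under 0.05. Over all genes 17.3% were called lower and 9.91% higher in Mex3a+ cells, 27.2% in either direction. With the mouse as a block in the fit, which called 41.2% of all genes, all 8 were called in the same directions. The median log2 difference was -2.31 over the 8 genes and -0.01 over all genes tested. Every sample is a bulk of cells, so fewer cells that express a gene and less RNA of it per cell cannot be told apart.

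**Figure D1:**
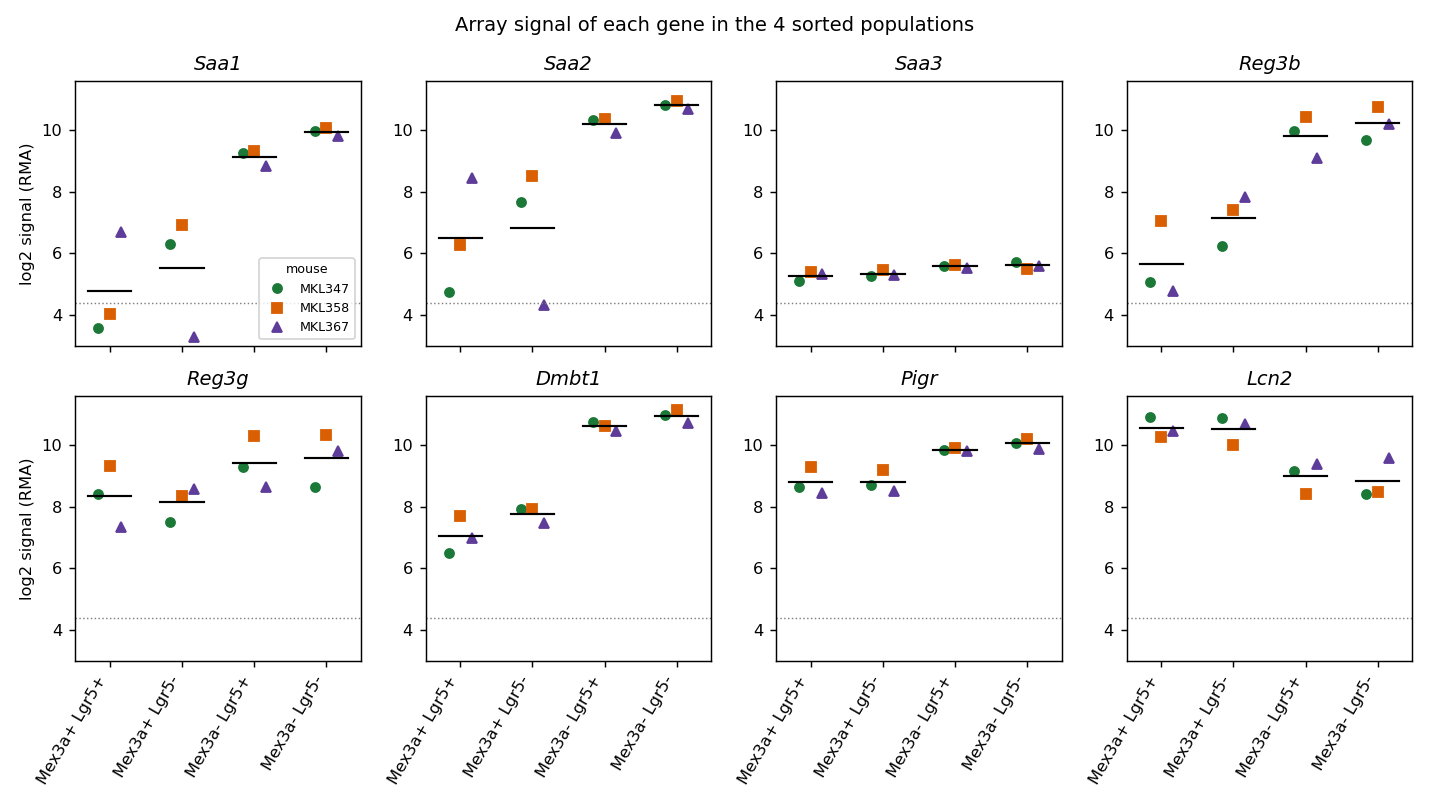
Log2 signal (RMA) of each gene on every array, by sorted population on the horizontal axis, with 1 point per mouse, a bar at the mean of 3 arrays and a dotted line at the filter level of 4.40. Saa1, Saa2, Reg3b and Dmbt1 are lower on all 6 Mex3a+ arrays than on all 6 Mex3a- arrays, where they are near 9 to 11, whereas Lcn2 runs the other way.

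Saa1 had log2 signals of 3.57, 4.03 and 6.69 in Mex3a+ Lgr5+ cells of MKL347, MKL358 and MKL367, and 6.32, 6.92 and 3.30 in Mex3a+ Lgr5- cells of these mice. It had 9.26, 9.31 and 8.84 in Mex3a- Lgr5+ cells and 9.96, 10.08 and 9.81 in Mex3a- Lgr5- cells. All 6 Mex3a+ arrays lay below all 6 Mex3a- arrays, and the Mex3a+ arrays were spread over more than 3 log2 units while the Mex3a- arrays were close together. The mean was 5.14 ± 1.67 on Mex3a+ arrays and 9.54 ± 0.48 on Mex3a- arrays (SD, n = 6 each). On 3 of the 6 Mex3a+ arrays Saa1 was below the filter level of 4.40, so the size of its difference is not exact. As deposited it fell by 4.41 on the log2 scale (SE 0.62, limma adjusted p = 0.000489), and with signals below the level raised to it the difference was -4.02 (SE 0.46, limma adjusted p = 0.000173).

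The 12 arrays stood in the same order for Saa2 as for Saa1. Its values in Mex3a+ Lgr5+ cells were 4.75, 6.27 and 8.45 (MKL347, MKL358, MKL367), and in Mex3a+ Lgr5- cells 7.68, 8.51 and 4.31. In Mex3a- Lgr5+ cells they were 10.32, 10.38 and 9.91, and in Mex3a- Lgr5- cells 10.82, 10.96 and 10.70. The 2 sides did not overlap, and again the scatter was on the Mex3a+ side. The average fell by 3.85 (SE 0.70, limma adjusted p = 0.00193), the difference with the 1 array below 4.40 raised to it was -3.84, and without mouse MKL347 the call was lost (limma adjusted p = 0.0523). The dimmer Saa2 probe set spanned 5.06 to 5.41 on Mex3a+ arrays and 5.14 to 5.73 on Mex3a- arrays. It differed by -0.23 (SE 0.09) and was not called when every probe set was tested (limma adjusted p = 0.0997), so the large Saa2 difference rests on 1 probe set of 2.

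Saa3, the serum amyloid gene that macrophages and epithelium express outside the liver, was dim everywhere. It spanned 5.09 to 5.45 on Mex3a+ arrays and 5.51 to 5.72 on Mex3a- arrays. The ranges did not overlap, but the gap between them was small beside the span of either side. The mean was 5.31 ± 0.12 in Mex3a+ cells and 5.60 ± 0.08 in Mex3a- cells (SD, n = 6 each), a difference of -0.29 (SE 0.07, limma adjusted p = 0.0126). The call was lost without mouse MKL347 (limma adjusted p = 0.192, difference -0.19) and without mouse MKL367 (limma adjusted p = 0.114).

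Reg3b had 5.09, 7.07 and 4.77 in Mex3a+ Lgr5+ cells (MKL347, MKL358, MKL367) and 6.24, 7.41 and 7.83 in Mex3a+ Lgr5- cells. It had 9.96, 10.42 and 9.09 in Mex3a- Lgr5+ cells and 9.68, 10.77 and 10.22 in Mex3a- Lgr5- cells. Every Mex3a+ array was below every Mex3a- array. The average fell by 3.62 (SE 0.41, limma adjusted p = 0.000162). Its other probe set, which carries the suffix of sets shared between transcripts, fell by 3.29 (limma adjusted p = 0.000252 over all probe sets).

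Reg3g, the neighbouring lectin gene, was less separated. It had 8.43, 9.33 and 7.33 in Mex3a+ Lgr5+ cells and 7.51, 8.35 and 8.58 in Mex3a+ Lgr5- cells, against 9.30, 10.29 and 8.65 in Mex3a- Lgr5+ cells and 8.65, 10.33 and 9.80 in Mex3a- Lgr5- cells. The sides overlapped, since 9.33 on a Mex3a+ array of MKL358 was above the lowest 3 Mex3a- arrays. The mean was 8.25 ± 0.74 in Mex3a+ cells and 9.50 ± 0.76 in Mex3a- cells (SD, n = 6 each). The average fell by 1.25 (SE 0.40, limma adjusted p = 0.0358), and this call was the least stable of the 8. It was kept in 9 of 21 alternative settings, and was lost without MKL347 (limma adjusted p = 0.131), without MKL358 (0.0509), without MKL367 (0.101), without any 1 of 8 single arrays (0.0509 to 0.0851) and after a further quantile normalization (0.0610).

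Dmbt1 had the widest gap between the 2 sides among the 8 genes. Its values were 6.51, 7.69 and 6.97 in Mex3a+ Lgr5+ cells and 7.93, 7.93 and 7.48 in Mex3a+ Lgr5- cells of MKL347, MKL358 and MKL367. They were 10.75, 10.63 and 10.46 in Mex3a- Lgr5+ cells and 10.99, 11.14 and 10.73 in Mex3a- Lgr5- cells. More than 2 log2 units lay between the highest Mex3a+ and the lowest Mex3a- array. The average fell by 3.37 (SE 0.17, limma adjusted p = 1.13e-06), the third smallest p among the 12595 genes, and the call was kept in all 21 alternative settings.

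Pigr was bright in every population. It spanned 8.44 to 9.30 (median 8.67) on Mex3a+ arrays and 9.81 to 10.22 (median 9.89) on Mex3a- arrays, and the 2 sides did not overlap. The average fell by 1.15 (SE 0.15, limma adjusted p = 0.000324), a 2.22-fold lower linear signal. The other Pigr probe set fell by 1.48 (limma adjusted p = 0.000595 over all probe sets).

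Lcn2 went the other way. It had 10.93, 10.27 and 10.45 in Mex3a+ Lgr5+ cells and 10.90, 10.002 and 10.70 in Mex3a+ Lgr5- cells of MKL347, MKL358 and MKL367. It had 9.17, 8.41 and 9.40 in Mex3a- Lgr5+ cells and 8.42, 8.47 and 9.59 in Mex3a- Lgr5- cells. The lowest Mex3a+ array was above the highest Mex3a- array. The average rose by 1.63 (SE 0.25, limma adjusted p = 0.000714). In all, 7 of the 8 genes had no overlap between the 6 Mex3a+ and the 6 Mex3a- arrays, 6 of them lower and 1 higher, where 13.3% of all genes had no overlap, 9.02% lower and 4.27% higher.

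The same contrast was then taken within each Lgr5 state, 3 arrays against 3. In Lgr5+ cells Saa1, Saa2, Reg3b, Dmbt1 and Pigr were called lower in the Mex3a+ population and Lcn2 higher, against 4.80% and 3.21% of all genes. In Lgr5- cells the same 5 were called lower and Lcn2 higher, against 11.7% and 5.15% of all genes. Saa3 and Reg3g were not called in either state by the fit without pairing. With the mouse as a block Reg3g was called in Lgr5- cells (difference -1.45, limma adjusted p = 0.0114 with the block, 0.102 without), where the block raised the share of genes called lower to 21.1%.

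**Figure D2:**
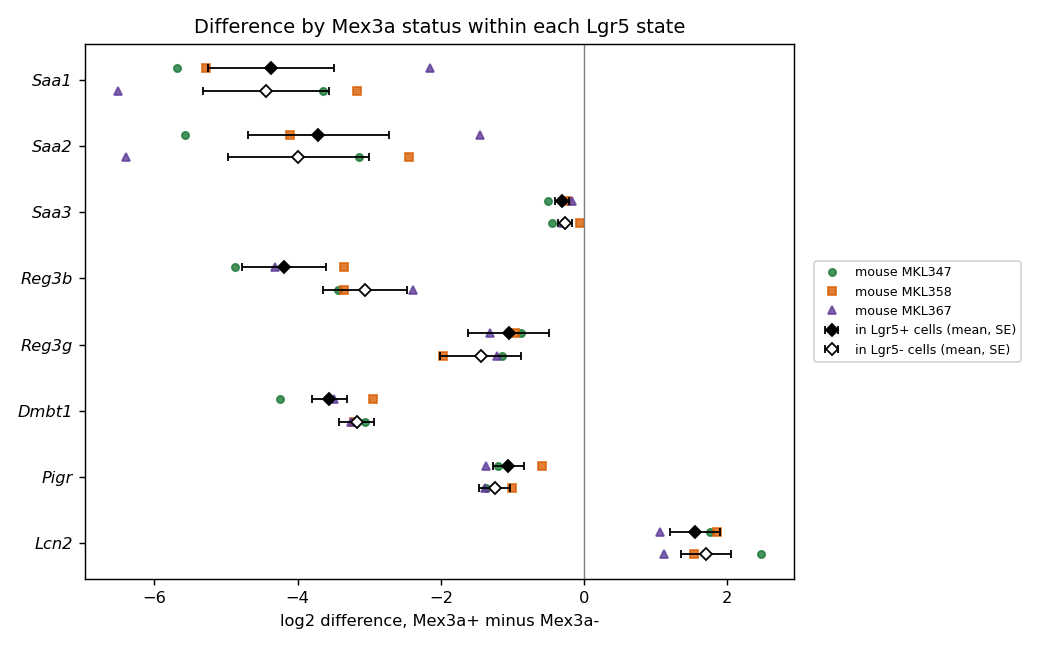
Log2 difference between Mex3a+ and Mex3a- cells for each gene, within Lgr5+ cells (filled diamonds) and within Lgr5- cells (open diamonds), with limma's standard error over 3 arrays per side and 1 coloured point per mouse. All points lie left of 0 for 7 genes and right of 0 for Lcn2, and mouse MKL367 lies far from the other mice for Saa1 and Saa2 in opposite directions in the 2 Lgr5 states.

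The sizes in the 2 Lgr5 states lay close together for most genes. Saa1 differed by -4.37 in Lgr5+ cells (SE 0.87, limma adjusted p = 0.0156) and by -4.44 in Lgr5- cells (SE 0.87, limma adjusted p = 0.00611). Reg3b differed by -4.18 in Lgr5+ cells (SE 0.59, limma adjusted p = 0.00306) and by -3.06 in Lgr5- cells (SE 0.59, limma adjusted p = 0.00540). The other Reg3b probe set differed by -3.30 in Lgr5+ cells and -3.28 in Lgr5- cells. Dmbt1 differed by -3.56 and -3.17, Pigr by -1.06 and -1.25, and Lcn2 by 1.55 and 1.71 in Lgr5+ and Lgr5- cells. The interaction of Mex3a and Lgr5 status, which tests the difference between these pairs of values, called none of the 8 genes. It called 0 of 12595 genes in limma with and without the mouse as a block, with 359 genes but 0 of the 8 at an unadjusted p under 0.05. The standard error of the interaction was 1.24 for Saa1 and 0.83 for Reg3b, so differences of that size between the Lgr5 states could not be resolved.

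With 3 arrays per side the calls depended on single mice, for the 8 genes as for all genes. All arrays together gave 404 genes higher and 605 lower in Lgr5+ cells, and 649 and 1476 in Lgr5- cells. Without MKL347, 1 of the 8 genes, Dmbt1, was still called in Lgr5+ cells, where 1 of all genes was higher and 18 were lower. Again 1, Dmbt1, was called in Lgr5- cells, where 17 of all genes were higher and 192 lower. In Lgr5+ cells 2 of the 8 were called without the Mex3a+ array of MKL347 (80 of all genes higher and 161 lower). The number was also 2 without the Mex3a- array of MKL347 (91 and 122 of all genes) or that of MKL358 (78 and 134). It was 4 without the whole of MKL358 (550 and 681), the whole of MKL367 (56 and 127) or the Mex3a+ array of MKL367 (99 and 123). Dmbt1 was called in all 21 alternative settings in both Lgr5 states, and no alternative turned the sign of a called gene.

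The second question was whether Lgr5 status moved these genes. None of the 8 was called for the average of Lgr5+ against Lgr5- cells in limma, with or without the mouse as a block, where 0.0397% of all genes were called without the block and 1.80% with it. Dmbt1 (difference -0.53, unadjusted p = 0.00996 in the limma model) and Reg3b (difference -0.96, unadjusted p = 0.0401 in the limma model) were under an unadjusted 0.05, as were 6.22% of all genes. Within Mex3a+ cells 0 of the 8 and 0 of all genes were called in limma, with Reg3b and Dmbt1 again under an unadjusted 0.05, as were 2.99% of all genes. There the tested Reg3b probe set differed by -1.52, and its other probe set by -0.83 (SE 0.57). Within Mex3a- cells 0 of the 8 were called, none was under an unadjusted 0.05, and 0.0318% of all genes were called.

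**Figure D3:**
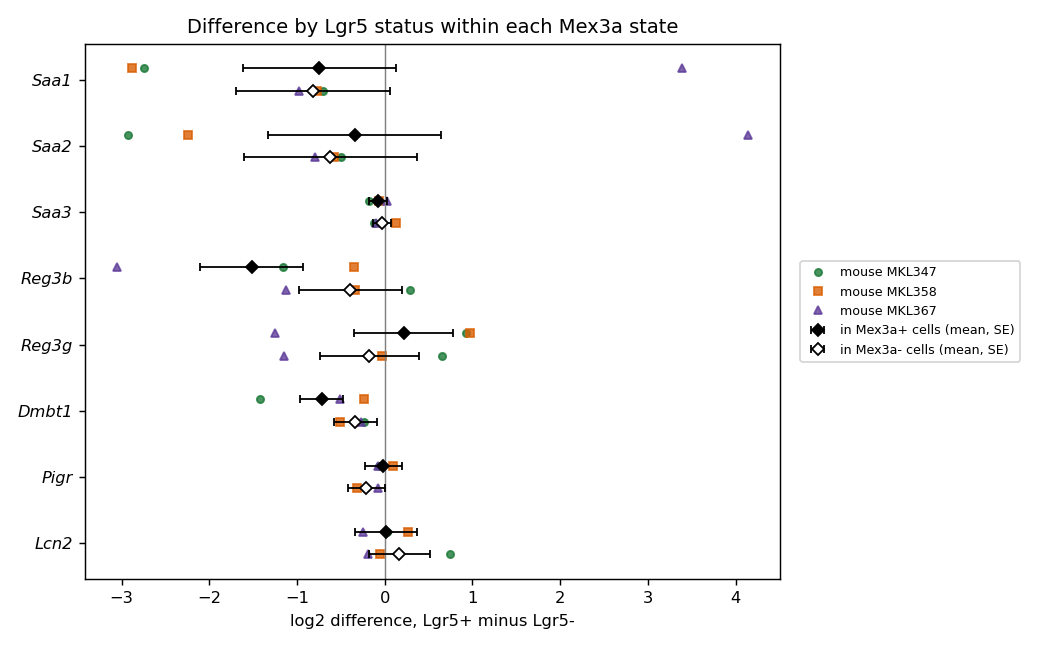
Log2 difference between Lgr5+ and Lgr5- cells for each gene, within Mex3a+ cells (filled diamonds) and within Mex3a- cells (open diamonds), with limma's standard error over 3 arrays per side and 1 coloured point per mouse. Saa1 and Saa2 in Mex3a+ cells run from below -2 in MKL347 and MKL358 to above 3 in MKL367, and Reg3b and Reg3g in MKL367 lie on the negative side.

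Behind the uncalled mean, the mice went opposite ways for Saa1 and Saa2 in Mex3a+ cells. Saa1 differed between Mex3a+ Lgr5+ and Mex3a+ Lgr5- cells by -2.74 in MKL347, -2.89 in MKL358 and 3.39 in MKL367. Saa2 differed by -2.93, -2.24 and 4.14 in the same mice. In each mouse 1 of the 2 Saa1 arrays was below 4.40, as was 1 Saa2 array in MKL367. With signals below that level raised to it, Saa1 differed by -1.91, -2.51 and 2.29 and Saa2 by -2.93, -2.24 and 4.05. On that basis Saa1 and Saa2 ranked 1 and 2 from the lowest of 12595 genes in MKL358, Saa2 ranked 3 and Saa1 ranked 8 from the lowest in MKL347, and Saa2 ranked 1 and Saa1 ranked 3 from the highest in MKL367.

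The Reg3 lectins did not follow the serum amyloids in MKL367. Reg3b differed between Mex3a+ Lgr5+ and Mex3a+ Lgr5- cells by -1.16 in MKL347, -0.35 in MKL358 and -3.05 in MKL367, and Reg3g by 0.92, 0.97 and -1.25. In MKL367 Reg3b ranked 2 and Reg3g ranked 4 from the lowest, on the same pair of arrays on which Saa1 and Saa2 were at the top. The Lgr5 transcript on these 2 arrays followed the labels, with 8.50 in Mex3a+ Lgr5+ and 7.49 in Mex3a+ Lgr5- cells, and Mex3a was 7.31 and 6.91.

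With MKL367 left out, Saa1 was called for Lgr5 status in Mex3a+ cells (difference -2.81, limma adjusted p = 0.0300) and on average (difference -1.78, limma adjusted p = 0.0232). No other of the 8 genes was called for Lgr5 status under any of the 21 alternatives. In Mex3a- cells the 3 mice were alike. Saa1 differed by -0.71, -0.77 and -0.97 and Saa2 by -0.50, -0.58 and -0.79 in MKL347, MKL358 and MKL367. Neither was called (limma adjusted p = 0.9937 for Saa1 and 0.9996 for Saa2). The fit uses 1 spread per gene for all 4 populations, so the SE (0.87 for Saa1, 0.99 for Saa2) includes the scatter of the Mex3a+ arrays. For Saa1 the SD was 1.68 and 1.94 in the Mex3a+ populations, against 0.26 and 0.14 in the Mex3a- populations. These p-values therefore do not show that Lgr5 status made no difference in Mex3a- cells.

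The order of the 4 population means showed the same split. Saa1, Saa2, Saa3, Reg3b, Dmbt1 and Pigr ran from lowest in Mex3a+ Lgr5+ cells through Mex3a+ Lgr5- and Mex3a- Lgr5+ cells to highest in Mex3a- Lgr5- cells. For Saa1 the means were 4.76 ± 1.68, 5.51 ± 1.94, 9.14 ± 0.26 and 9.95 ± 0.14 (SD, n = 3 each), and for Dmbt1 7.06 ± 0.60, 7.78 ± 0.26, 10.61 ± 0.15 and 10.95 ± 0.21 (SD, n = 3 each). For all 6 genes the arrays of the 2 Mex3a+ populations overlapped, and those of Mex3a+ Lgr5- and Mex3a- Lgr5+ cells did not. The 2 Mex3a- populations were apart from each other for Saa1 and Saa2 and overlapped for Saa3, Reg3b, Dmbt1 and Pigr. Reg3g overlapped between all neighbouring populations, and Lcn2 ran in the reverse direction, with its lowest mean in Mex3a- Lgr5- cells.

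The 8 genes also varied by mouse. After the population means were removed, MKL358 deviated from the mean of the 3 mice by 0.70 for Reg3b, 0.70 for Reg3g, 0.44 for Saa2, 0.28 for Pigr, 0.25 for Dmbt1 and -0.44 for Lcn2. MKL358 is also the mouse whose pools held 500 cells, and the part of pool size in these deviations was not tested. Over the 12 arrays, and after removal of the population means, Saa1 and Saa2 correlated at 0.98, Reg3b and Reg3g at 0.90 and Dmbt1 and Pigr at 0.77. Saa1 correlated with Reg3b at -0.39 and with Reg3g at -0.41 on the same basis. These arrays share 3 mice and the first pair may share probe signal, so the correlations only describe these 12 arrays.

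The genes whose 12 values were most like each of the 8, by Pearson r over the 12 arrays, differed from gene to gene. They were Dhrs7b (0.954), Acat1 and Sdhd for Saa1, Ppp4r3a (0.935), Eps8l3 and Ercc3 for Saa2, and Vipr1 (0.961), Lrrc31 and Nr1i2 for Saa3. For Reg3b they were Spns2 (0.966), Tmc8 and Nek6, and for Reg3g Bola1 (0.929), Fxyd4 and Fau. For Dmbt1 they were 2610528A11Rik (0.985), Tmem54 and Ppp1r14d, and for Pigr Ckmt1 (0.989), Cdx1 and Ifi30. For Lcn2 they were Mapk4 (0.986), Ifitm1 (0.982) and Adam12 (0.981). All arrays of a population share its difference by Mex3a status, which is part of each of these values.

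Other secreted defence genes were read beside the 8. Of 32 such genes tested, 15 fell in Mex3a+ cells, 1 rose and 16 were not called, with a median difference of -0.38. With the mouse as a block 18 fell and 5 rose, and in limma 10 fell and 0 rose without MKL347, and 12 fell and 2 rose without MKL367. Zg16, a lectin of the mucus layer that binds Gram-positive bacteria, averaged 5.67 ± 1.78 in Mex3a+ Lgr5+ and 5.36 ± 1.42 in Mex3a+ Lgr5- cells, against 10.32 ± 0.54 in Mex3a- Lgr5+ and 11.09 ± 0.34 in Mex3a- Lgr5- cells (SD, n = 3 each). It fell by 5.19 (limma adjusted p = 0.000121). Lypd8, which keeps flagellated bacteria away from the colon epithelium, fell by 1.95 (limma adjusted p = 0.000269), and Ccl28, a chemokine that draws plasma cells to mucosa, fell by 1.01 (limma adjusted p = 0.000215). Pglyrp1, a peptidoglycan recognition protein, was the 1 gene that rose, by 0.26 (limma adjusted p = 0.0101), and it was not called without MKL347 (limma adjusted p = 0.156).

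Few of the other acute phase genes could be tested. Of 21 listed, 8 passed the filter, and 1 fell, 0 rose and 7 were not called, with a median difference of 0.03. Calls over all genes were 17.3% lower and 9.91% higher. With the block 2 rose and 1 fell. The gene that fell was Il1rn, the interleukin 1 receptor antagonist, by 1.45 (limma adjusted p = 0.00352), and its call was lost without MKL347 (limma adjusted p = 0.0878).

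Among 32 cytokine receptors, signalling genes and transcription factors of the pathways that induce these genes, 8 fell, 4 rose and 20 were not called. Their median difference was -0.03, against -0.01 over all genes tested. Of all genes, 17.3% were called lower and 9.91% higher, and the list as a whole was not tested against these shares. Without MKL347 5 fell and 2 rose. Ifngr1, an interferon gamma receptor chain, fell by 1.13 (limma adjusted p = 0.000262), Il17rc, an interleukin 17 receptor chain, by 0.47 (limma adjusted p = 0.000505), and Fut2, a fucosyltransferase of the epithelium, by 0.47 (limma adjusted p = 0.000470). Also called lower, and named after their values were seen, were the C/EBP factor Cebpa, Tnfrsf1a, Il10rb, Myd88 and Tlr4. Cebpa differed by -0.997 (limma adjusted p = 0.00607) and Tnfrsf1a by -0.498 (limma adjusted p = 0.00116). Il10rb differed by -0.464 (limma adjusted p = 0.00249), Myd88 by -0.572 (limma adjusted p = 0.00751) and Tlr4 by -0.463 (limma adjusted p = 0.00970). The 4 that rose, of which all but Il1r1 were picked for naming after their values were seen, were Il1r1 (by 0.54, limma adjusted p = 0.00137), the interleukin 6 family receptor Il6st (by 0.83, limma adjusted p = 0.00184), the NF-kB subunit Rela (by 0.31, limma adjusted p = 0.0274) and the C/EBP factor Cebpd (by 0.80, limma adjusted p = 0.0325). Without MKL347 neither Rela (limma adjusted p = 0.137) nor Cebpd (limma adjusted p = 0.297) was called.

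Of 5 genes tested on a list of receptors and related genes, 2 rose, 1 fell and 2 were not called. Over all genes 9.91% were called higher and 17.3% lower. Extl3, reported as a receptor for Reg3 proteins, rose by 0.48 (limma adjusted p = 0.000649). Slc22a17, a receptor for Lcn2, rose by 0.47 (limma adjusted p = 0.00423), a call lost without MKL347 (limma adjusted p = 0.0595). Fcgrt, the neonatal Fc receptor, fell by 0.55 (limma adjusted p = 0.0101), a call lost without MKL347 (limma adjusted p = 0.130) and without MKL367 (limma adjusted p = 0.0684). With the block 2 rose and 2 fell, and the same counts held without MKL358.

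**Figure D4:**
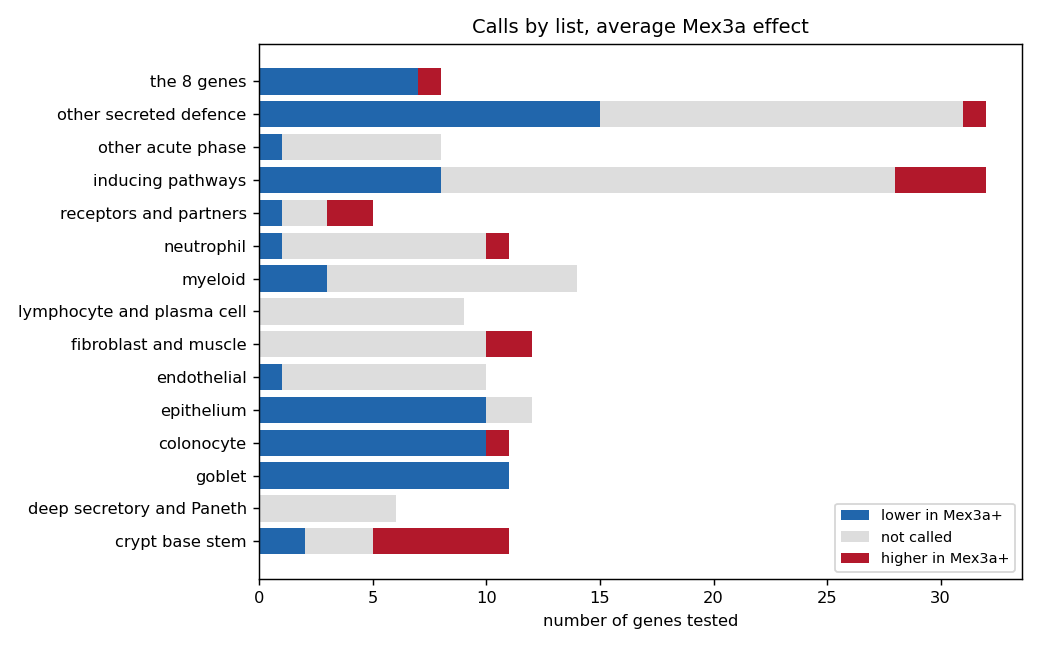
Number of genes tested in each list that were called lower, not called or called higher in Mex3a+ than in Mex3a- cells by limma. The 8 genes, the goblet list (11 lower of 11) and the colonocyte list (10 lower of 11) are mostly lower, and the lymphocyte and plasma cell list and the deep secretory and Paneth list hold no call.

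Markers of mature epithelium moved with these genes. Of 11 colonocyte genes 10 fell and 1 rose in Mex3a+ cells (median difference -2.91). Of 11 goblet cell genes 11 fell (median -1.28), and of 12 general epithelial genes 10 fell (median -0.35). Zg16, Fcgbp, Clca1, Tff3 and Agr2 (goblet list) and Lgals4 (epithelial list) were also counted among the secreted defence genes that fell. Of 11 crypt base stem cell genes 6 rose and 2 fell, and of 6 deep secretory and Paneth cell genes none was called in limma. The shares of all genes called were 17.3% lower and 9.91% higher. Without MKL347 the epithelial count was 3 and 3 stem cell genes rose and 0 fell, and with the block 2 deep secretory genes rose and 1 fell. The mean level of the colonocyte list relative to its mean over all arrays was -1.32 to -0.996 in Mex3a+ Lgr5+ and -1.17 to -0.36 in Mex3a+ Lgr5- cells, against 0.393 to 1.003 in Mex3a- Lgr5+ and 1.06 to 1.57 in Mex3a- Lgr5- cells. Their part in the differences of the 8 genes was not tested.

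Markers of other cells that can make Lcn2, Saa3 or the acute phase proteins were set beside the results. Of 11 neutrophil genes 1 rose, 1 fell and 9 were not called, and with the block 1 rose and 4 fell. The gene that rose was Mpo, by 0.29 (limma adjusted p = 0.00211), and the gene that fell was Il1b, by 0.83 (limma adjusted p = 0.0160). Both were named after their values were seen. Among all genes 17.3% were called lower and 9.91% higher in limma. Without MKL358 3 neutrophil genes fell, and without MKL367 none was called in limma. The relative level of the neutrophil list was -0.30 to -0.08 in Mex3a+ Lgr5+ and -0.16 to 0.23 in Mex3a+ Lgr5- cells, against -0.27 to 0.46 in Mex3a- Lgr5+ and -0.14 to 0.82 in Mex3a- Lgr5- cells, with the highest values in MKL358. Ngp, a neutrophil granule gene, was at or below 4.28 and Adgre1, a macrophage gene, at or below 3.86 on all 12 arrays, under the filter level. Other markers of these cells were above that level on all 12 arrays: Csf3r of neutrophils (4.76 to 5.64), and Cd68 (5.22 to 5.80) and Csf1r (5.77 to 6.28) of macrophages. S100a8, abundant in neutrophils, was lower in Mex3a+ cells by a log2 difference of -1.14 (limma adjusted p = 0.265, and 0.00133 with the block), and S100a9 by -0.85 (limma adjusted p = 0.250, and 0.00266 with the block).

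S100a8 was highest in MKL358, at 5.26 in Mex3a+ Lgr5+ and 6.42 in Mex3a+ Lgr5- cells, against 7.50 in Mex3a- Lgr5+ and 8.29 in Mex3a- Lgr5- cells. Without MKL358 all of the 8 genes but Reg3g were called for Mex3a status. Of 14 myeloid genes 3 fell and 11 were not called, with 5 lower under the block and 1 lower without MKL358 or without MKL367. For this and the next lists the shares over all genes in limma were 17.3% lower and 9.91% higher. Of 9 lymphocyte and plasma cell genes none was called in limma, with 1 lower under the block. Of 12 fibroblast and muscle genes 2 rose, with 1 higher without any 1 of the mice, and of 10 endothelial genes 1 fell, with 0 called without MKL347 or without MKL367. The fibroblast list stood at 0.79 on the Mex3a- Lgr5+ array of MKL367, above its level on all other arrays. The part of these cells in the differences of the 8 genes was not tested.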

How the data were processed

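Total RNA of the sorted pools was amplified as whole transcriptome cDNA, labelled and hybridised to an Affymetrix mouse array, per the labels. The deposited values are log2 signals that the authors made with RMA, per the submitters' processing notes; the sources used here give no version, options or genome build, and nothing was rescaled. RMA by default brings arrays to a common distribution, so levels are relative. Of 45141 probe sets, GEO's platform table gives 1 symbol to 28898, several to 551 and none to 15692; only the first kind was used. Several probe sets served 7180 of the 17097 symbols, and the one with the highest mean was tested. Genes above the 40th percentile of all values (4.40) on at least 3 arrays were kept, which left 12595.

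Genes were tested with limma 3.58.1, R 4.3.3 (1 mean per population, all 12 arrays, empirical Bayes with a trend, 2-sided, Benjamini-Hochberg) in 7 comparisons. The main fit had no block. The mouse numbers in the titles pair the arrays: after removal of population means, the 18 pairs from 1 mouse correlated over genes at 0.349 to 0.694, and the 48 pairs from 2 mice at -0.691 to 0.152. P-values of the main fit rest on the spread between arrays within a population, each from another mouse. This spread is estimated once per gene over all 4 populations, with all 12 arrays taken as independent. The block removes what the arrays of a mouse share, so its p-values rest on the spread that is left. Alternatives were the mouse as a block, 2 other filters, 2 further normalizations, every probe set on its own, and each mouse or array left out. Raising signals below 4.40 to it was added after the data were seen. The fit was tested on simulated data.

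Named genes were the 8 genes, Mex3a and Lgr5, per pathway list the 3 called genes with the smallest p and at least 1 per direction, the 3 genes most correlated with each of the 8, and defining cell markers. In the list of inducing pathways every called gene was named. The 8 genes and the lists, drawn from general knowledge, were chosen with earlier results of these data known. Motif searches and alignments used RefSeq windows in Python 3.11.15 with Biopython 1.88, and figures matplotlib 3.10.9.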

Additional observations from a re-analysis of the deposited data

How the results depend on the processing

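None of the tested differences of the 8 genes that were called changed sign under any of the 21 alternatives. With the mouse as a replicate block, which pairs the arrays by mouse, limma called 5192 genes for the average Mex3a effect (3422 without the block), 2772 in Lgr5+ cells (1009), 4021 in Lgr5- cells (2125), 227 for the average Lgr5 effect (5), 9 for Lgr5 in Mex3a+ cells (0) and 204 for Lgr5 in Mex3a- cells (4). Among the 8 genes the block changed the call of Reg3g in Lgr5- cells and no other. Leaving out single mice or arrays gave 1034 to 3498 genes for the average Mex3a effect, 19 to 1335 in Lgr5+ cells, 209 to 2179 in Lgr5- cells, 0 to 7 for the average Lgr5 effect, 0 to 1 for Lgr5 in Mex3a+ cells, 0 to 7 for Lgr5 in Mex3a- cells and 0 to 1 for the interaction. Of the 8 genes these settings called 5 to 8 for the average Mex3a effect, 1 to 6 in Lgr5+ cells, 1 to 6 in Lgr5- cells, 0 to 1 for the average Lgr5 effect and 0 to 1 for Lgr5 in Mex3a+ cells. The lowest counts for the 8 genes by Mex3a status came without MKL347. For Lgr5 in Mex3a+ cells, no filter and the further quantile normalization each called 1 gene, against 0 in limma with the filter (376 at an unadjusted p under 0.05). Tested on every probe set, Lgr5 in Mex3a- cells gave 7 calls, as it did with signals below the filter level raised to it, a setting chosen after seeing the data that changed no call of the 8 genes. The share of called genes that were lower was 63.5% for the average Mex3a effect, 53.6% after the further quantile normalization and 70.8% after median centring, and in Lgr5- cells 69.5%, or 55.6% after quantile normalization. Signs of uncalled differences turned in 13 cases for the average Lgr5 effect, 21 and 10 for Lgr5 in Mex3a+ and Mex3a- cells and 19 for the interaction. The cause was not tested. In Lgr5+ cells Saa2 was called in 10 of 21 alternatives, Saa1 in 16, and Pigr and Lcn2 in 15 each. In Lgr5- cells Saa2 was called in 18 and Saa1, Reg3b, Pigr and Lcn2 in 20 each. With 3 mice, a mouse and its pool size cannot be told apart, and levels of different probe sets were not compared. Saa3 was dim but above the filter level, at 5.09 to 5.72. Saa1 was above that level on 1 of 3 Mex3a+ Lgr5+ and 2 of 3 Mex3a+ Lgr5- arrays and below it on the others of these populations.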
